A study of Mus musculus with 30 samples.

Results

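This comparison set the hearts of old mice against those of young mice at ZT22, a time late in the dark phase. Its members were chosen by age, time and water: the 3 old H2O hearts and the 3 young hearts taken at ZT22, 6 of the 30 samples in the series and 6 of its 18 hearts. All hearts came from female mice on a mixed C57Bl6J/N background, kept in a 12:12 light/dark cycle with standard chow, and each heart gave 1 library. The old mice were 12 months of age and drank water without nicotinamide riboside (labelled MQ, here old H2O). The young mice were 2 months of age and carry the same label MQ. ZT (Zeitgeber time) counts hours from lights on, so that ZT22 lies in the night and ZT10 in the day, and at ZT22 the hearts were taken under red light. The same ages at ZT10, in other mice, are given only to show where ZT22 differed. Whole hearts were sequenced, so that fewer cells of a type and less RNA per cell cannot be told apart.

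The libraries held 4538090, 6068397 and 5402311 counts in the young and 3922137, 6122256 and 7562215 in the old hearts at ZT22. Markers of ventricular cardiomyocytes summed to between 6408 and 9971 normalized CPM (counts scaled to the library) in the 6 hearts, whereas markers of lung and thymus stayed below 2. Atrial markers summed to 384 to 591 in the young hearts and to 394, 959 and 425 in the old hearts, so that old replicate 2 stood apart at ZT22. At ZT10 the same markers summed to 475 to 1250 in young and 821 to 1079 in old hearts. The part of atrial tissue in the differences between the times was not tested. Bmp10, a growth factor of the atrium, had normalized counts (TMM, the unit of all counts per heart below) of 2.48, 4.6 and 1.02 in the young and 29.5, 1218 and 6.3 in the old hearts, a difference that was called only without old replicate 1 or 3 and with the replicate number as a block (7.21 as log2 fold change, adjusted p = 0.0757). Nnt, a mitochondrial enzyme gene that C57Bl6J but not C57Bl6N mice carry in a partly deleted form, had 5.64 to 6.47 normalized CPM in the young and 7.89 to 9.05 in the old hearts. It was not called, and the part of the mixed background in the results was not tested.

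As background, the heart keeps time with a transcriptional loop in which BMAL1 and CLOCK drive the Per, Cry and Nr1d genes, whose proteins act back on BMAL1 and its partners. The night is the active and feeding phase of mice. Many genes outside the loop follow the time of day in the heart, among them chaperones that fold new proteins in the cytosol and in the endoplasmic reticulum (ER), genes of the extracellular matrix and genes of fuel use. The unfolded protein response raises ER chaperones through the transcription factors XBP1, ATF6 and ATF4, and HSF1 does the same for cytosolic heat shock proteins. Aged hearts are known for changes in matrix, for immune cells in the tissue and for the return of fetal contractile genes.

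At ZT22 genes of many functions differed between old and young hearts. The genes with the largest increases encoded membrane and adhesion proteins (Ano5, Cdh4), an immunoglobulin chain (Ighg2c) and complement C4b. ER chaperones, cytosolic chaperones and immediate early genes were lower in old hearts, the core clock genes Arntl, Cry1 and Nfil3 were lower and Per3, Nr1d2 and Dbp higher, and markers of macrophages were higher. Of 15443 genes tested (a mean count over 5 across the 18 hearts), 2183 were called at an adjusted p under 0.05 (quasi-likelihood F-test of edgeR, Benjamini-Hochberg adjustment, as for every adjusted p below), 14.1% of all. Differences of single genes are log2 fold changes of old over young, with the standard error after ± where given. Of these, 1230 (7.96%) were higher and 953 (6.17%) lower in old hearts. The increases were the larger ones, with a median log2 fold change of 0.59 among higher and -0.34 among lower genes, and 315 higher against 74 lower genes passed an absolute log2 fold change of 1. Over all genes tested the median was -0.0047. The 3 old and the 3 young values did not overlap for 4354 genes (28.2%), for 1130 of the higher and for 876 of the lower genes. The number of called genes rested on single hearts: it was 1321 without young replicate 2, 1407 without old replicate 2 and 1405 without old replicate 3.

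**Figure D1:**
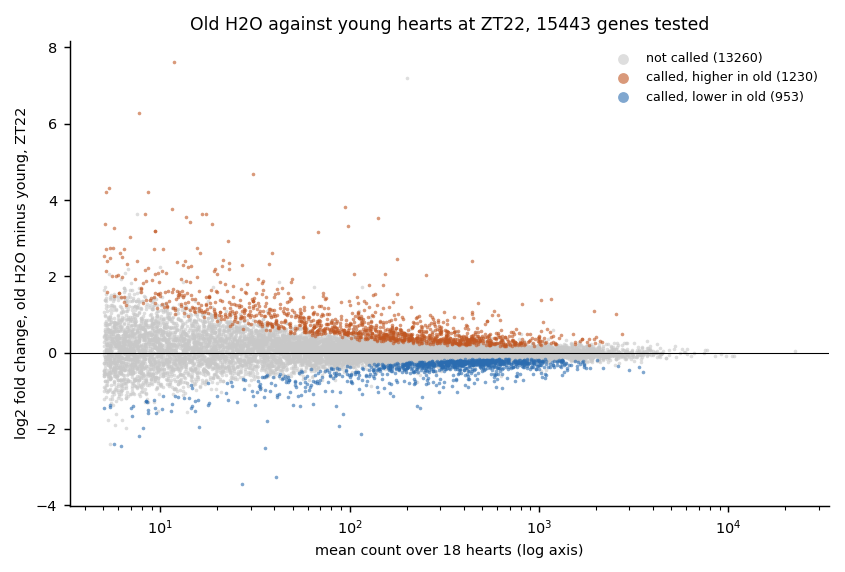
Each point is a gene, with its mean count over the 18 hearts on a log x axis and its log2 fold change between old H2O and young hearts at ZT22 on the y axis. The 1230 higher genes reach log2 fold changes above 2 for 68 genes, the 953 lower genes pass -2 for 7 genes, and calls at small fold changes are made at high counts.

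The direction of the calls moved with abundance. The tested genes were split by mean count into 5 classes of about equal size. The lowest class (mean counts of 5.06 to 24.5) had 189 higher and 43 lower genes, and the highest (558 and above) 131 higher and 254 lower. The median log2 fold change at ZT22 was 0.12 in the lowest class and -0.036 in the highest. At ZT10 it was 0.0018 and 0.015 in the same classes. With library size, which was between 3922137 and 7562215 in the old hearts, as a covariate, 1353 genes were higher and 1292 lower. The medians were then 0.057 in the lowest and -0.015 in the highest class, with 177 higher and 60 lower genes in the lowest and 259 higher and 366 lower in the highest class. Without old replicate 3, the deepest of the 6 libraries, the medians were 0.051 and 0.015, with 107 higher and 29 lower genes in the lowest and 128 higher and 137 lower in the highest class.

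The 12 genes that rose most, among those with a mean count of at least 50 and groups that did not overlap, held membrane, immune and metabolic genes. Ano5 (ENSMUSG00000055489, chromosome 7, 51511029 to 51598709 in GRCm38), a muscle membrane protein of the anoctamin family, had normalized counts of 18.6, 9.19 and 3.07 in the young and 73.7, 115 and 205 in the old hearts. Ano5 differed by 3.81 ± 0.42 (adjusted p = 6.17e-06). Cdh4 (ENSMUSG00000000305, chromosome 2, 179442431 to 179899373), the adhesion protein R-cadherin, had 17.4, 22.1 and 17.4 in the young and 221, 189.9 and 257 in the old hearts. Cdh4 differed by 3.54 ± 0.23 (adjusted p = 3.33e-09). Every old heart stood far above every young heart for both genes, and the young hearts differed among themselves more for Ano5 than for Cdh4. Cpxm2 (ENSMUSG00000030862, chromosome 7, 132032687 to 132154739), a secreted carboxypeptidase-like protein, had 143, 82.7 and 184 in the young and 843, 651 and 683 in the old hearts. Cpxm2 differed by 2.41 ± 0.23 (adjusted p = 6.59e-07). Its lowest old heart lay far above its highest young heart. Cds1, which makes CDP-diacylglycerol for phospholipids, rose by 2.07 (adjusted p = 3.33e-09), Cdh22, another cadherin, by 2.06 (adjusted p = 8.02e-06), and Prkcq, protein kinase C theta, by 1.77 (adjusted p = 2.29e-07). Acsm5, a mitochondrial acyl-CoA synthetase, rose by 1.76 (adjusted p = 6.51e-06), and Ric3, a chaperone of acetylcholine receptors, by 1.57 (adjusted p = 1.15e-05). The processed pseudogene Gm15459 had 9.94, 12.9 and 13.3 in the young and 23.6, 148 and 135 in the old hearts (3.16, adjusted p = 0.0193), a call that was lost without young replicate 2, young replicate 3, old replicate 2 or old replicate 3. Without young replicate 1 the value of Ano5 was 4.44.

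The 12 genes that fell most were led by unnamed transcripts, transport and secreted proteins. Slc38a1 (ENSMUSG00000023169, chromosome 15, 96571418 to 96642913), a glutamine transporter, had 398, 539 and 464 in the young and 158, 188 and 162 in the old hearts. Slc38a1 differed by -1.46 ± 0.17 (adjusted p = 1.2e-05). Adamtsl2 (ENSMUSG00000036040, chromosome 2, 27079379 to 27108981), a secreted glycoprotein of the ADAMTS-like family, had 323, 399 and 440.4 in the young and 119, 149.8 and 164 in the old hearts. Adamtsl2 differed by -1.40 ± 0.17 (adjusted p = 1.79e-05). Both genes had a clear gap between the highest old and the lowest young heart. Siah2, a ubiquitin ligase, had 184, 279 and 245 in the young and 100.3, 133 and 106 in the old hearts (-1.06, adjusted p = 7.17e-05), and Ret, a receptor tyrosine kinase, 145, 185 and 177 in the young and 81.1, 80.3 and 80.5 in the old hearts (-1.08, adjusted p = 0.000182). Tnfrsf25, a death receptor, fell by 1.11 on the log2 scale (adjusted p = 0.000466) and Col11a2, a fibrillar collagen chain, by 1.10 (adjusted p = 0.000686). 2210407C18Rik, a protein-coding gene with no name, fell by 1.61 (adjusted p = 0.000319), and Gm10727, an unverified transcript, fell by 1.41 (adjusted p = 0.00838). Olfml2b, a secreted olfactomedin-domain protein, had 256, 656 and 390.2 in the young and 179.9, 206 and 197 in the old hearts (-1.17, adjusted p = 0.0024), and Arid5a, which binds and stabilizes cytokine mRNAs, 129, 413 and 221 in the young and 98.8, 119 and 129 in the old hearts (-1.14, adjusted p = 0.00573). In both of the last genes young replicate 2 was the highest heart, and without it the value of Olfml2b was -0.74 (adjusted p = 0.0301) and that of Arid5a -0.59 and not called (adjusted p = 0.077). Sdf2l1 and Fos, also among the 12, are given with their groups.

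**Figure D2:**
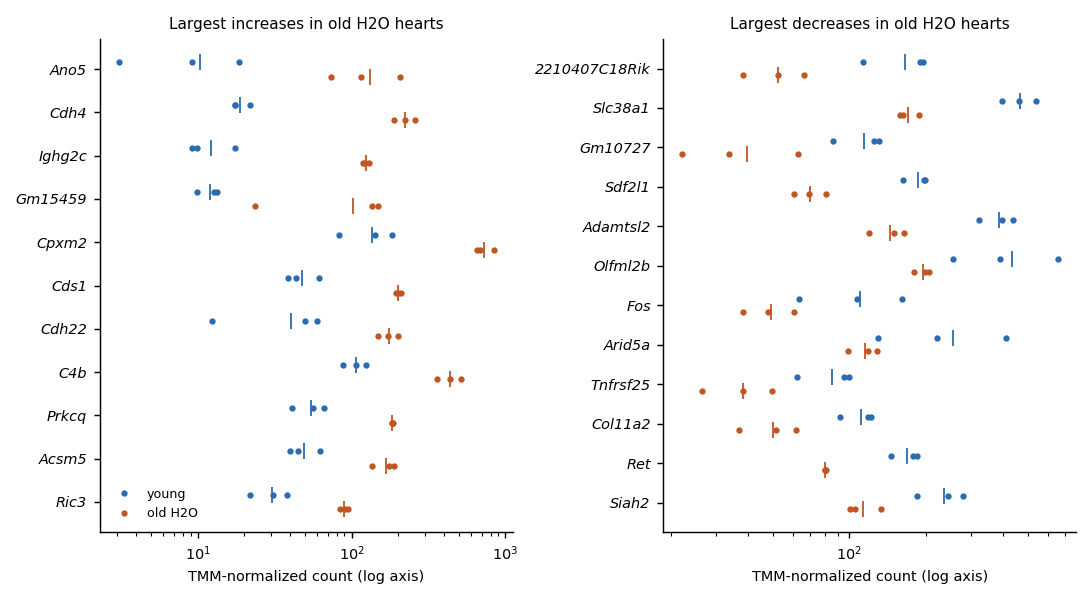
Normalized counts (log x axis) of 11 of the 12 genes that rose most and of the 12 that fell most at ZT22, 1 dot per heart, blue for young and orange for old H2O, with the group mean as a bar. For Cdh4 the old hearts lie at 221, 189.9 and 257 and the young hearts at 17.4, 22.1 and 17.4, while Olfml2b and Arid5a have 1 young heart well above the other young hearts.

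Genes of 26 pathways and functions were read out as lists, by counts of members called beside the 7.96% higher and 6.17% lower over all genes. The lists of ER chaperones, immediate early and heat shock genes had the highest shares of lower members, and those of complement, antigen presentation and the core clock the highest shares of higher members.

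**Figure D3:**
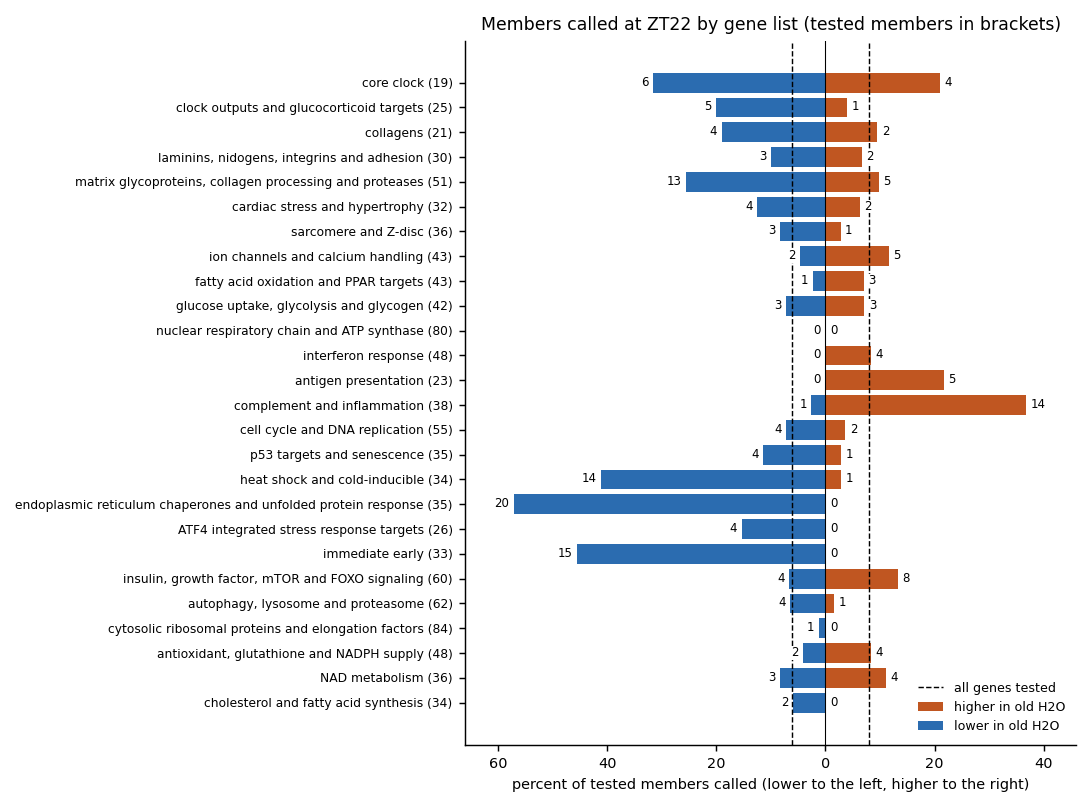
For each list, the percent of tested members called lower (left, blue) and higher (right, orange) in old H2O hearts at ZT22, with the counts at the bar ends, and dashed lines at 6.17% and 7.96%, the shares over all genes tested. ER chaperones reach 57.1% lower, and complement and inflammation 36.8% higher.

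The core clock list held 19 genes, all tested, of which 4 were higher and 6 lower at ZT22 (21.1% and 31.6%). The lower members included activators of the loop and its night-phase genes, and the higher members genes that reach their peak in the day. Arntl (ENSMUSG00000055116, chromosome 7, 113207465 to 113314126), which encodes BMAL1, had 629.8, 722 and 589.9 in the young and 329, 393 and 409 in the old hearts (-0.77, adjusted p = 2.28e-05). Npas2, a partner of BMAL1 in place of CLOCK, had 159, 208 and 178 in the young and 114, 115 and 125 in the old hearts (-0.62, adjusted p = 0.00202). Cry1 (ENSMUSG00000020038, chromosome 10, 85131700 to 85185064), a repressor of BMAL1 and CLOCK, had 441, 492 and 427 in the young and 255, 299.6 and 276 in the old hearts (-0.70, adjusted p = 1.48e-05). Old and young hearts were apart for all 3. Nfil3 (ENSMUSG00000056749, chromosome 13, 52967209 to 52981073), the repressor of D-box genes, had 507, 639 and 612 in the young and 313, 336 and 329 in the old hearts. Nfil3 differed by -0.85 ± 0.13 (adjusted p = 0.000219). Dbp, a D-box activator, went the other way, with 42.2, 23 and 49.2 in the young and 88.5, 89.2 and 63.7 in the old hearts (1.06, adjusted p = 0.0019). Per3 (ENSMUSG00000028957, chromosome 4, 151003652 to 151044665), a member of the period family that carries D-boxes, had 142, 119.5 and 156 in the young and 276, 271 and 271 in the old hearts. Per3 differed by 0.98 ± 0.10 (adjusted p = 3.09e-06). Nr1d2 (ENSMUSG00000021775, chromosome 14, 18204054 to 18239127), which encodes the repressor REV-ERB beta, had 330.4, 379.6 and 367 in the young and 781, 593 and 535 in the old hearts. Nr1d2 differed by 0.80 ± 0.12 (adjusted p = 9.55e-05). For these 4 genes the old and the young hearts did not overlap, Nfil3 being lower and the others higher in every old heart. Tef, another D-box activator, had 909, 819 and 1063 in the young and 1342, 1149 and 1069 in the old hearts (0.35, adjusted p = 0.0285), with the highest young and the lowest old heart nearly equal. Per2, a repressor of the loop, fell by 0.69 (adjusted p = 0.00677) from 179, 268 and 338 in the young and 114, 182 and 178 in the old hearts, and the groups overlapped.

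Of the 9 clock genes that were not called, Clock, Per1, Bhlhe40, Bhlhe41 and Nr1d1 had log2 fold changes of -0.15, 0.18, -0.33, 0.25 and 0.37, with adjusted p between 0.0693 and 0.452. Cry2, Rora, Hlf and Ciart lay within 0.09 of 0, with adjusted p from 0.479 to 0.89. The number of called members was 3 to 5 higher and 4 to 7 lower over the 14 alternative fits. Per2 was not called without young replicate 3, and Tef not without young replicate 1, young replicate 2, old replicate 1 or old replicate 2. Conversely, Nr1d1 was called without young replicate 2, and Bhlhe40 without young replicate 1 or old replicate 1. Of 25 outputs of the clock and of the glucocorticoid receptor, 1 was higher (4%, against 7.96% over all genes) and 5 were lower (20%, against 6.17%). The potassium channel gene Kcnd2 rose by 0.34 (adjusted p = 0.0101), and Tsc22d3, a glucocorticoid-induced gene, fell by 0.30 (adjusted p = 0.0141), a call lost without young replicate 3 or old replicate 1. The lower count of the output list fell to 1 without young replicate 3, 2 without young replicate 2 or old replicate 1, and 3 without old replicate 2 or 3.

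**Figure D4:**
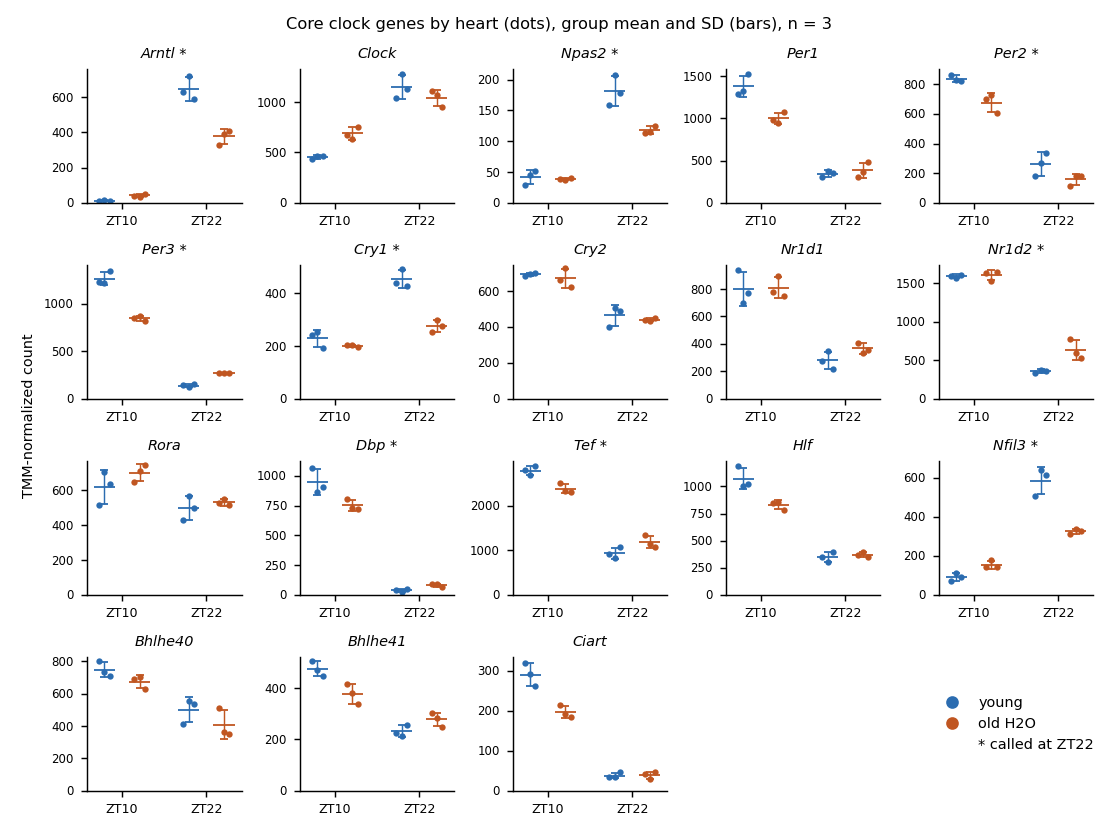
Normalized counts of 18 core clock genes, 1 dot per heart, with the group mean and SD (n = 3) as bars, at ZT10 and ZT22 for young (blue) and old H2O hearts (orange); a star marks genes called at ZT22. At ZT22 the old dots lie below the young for Arntl, Npas2, Cry1 and Nfil3 and above them for Per3, Nr1d2, Dbp and Tef.

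The promoter of Per3 is printed because its D-boxes are the elements on which Nfil3 and Dbp are known to act. The D-box was searched as TTANGTAA on both strands in the 250 bases before and 50 bases after each start site (RefSeq, GRCm38.p6). It was found in 2.72% of 27025 promoters and, among 16 core clock genes with a promoter entry, in 1, Per3, with matches that begin at positions -205 and -158 from the start. The sequence covers chr4:151044666-151044915 on the minus strand, with both matches in capitals.
Per3: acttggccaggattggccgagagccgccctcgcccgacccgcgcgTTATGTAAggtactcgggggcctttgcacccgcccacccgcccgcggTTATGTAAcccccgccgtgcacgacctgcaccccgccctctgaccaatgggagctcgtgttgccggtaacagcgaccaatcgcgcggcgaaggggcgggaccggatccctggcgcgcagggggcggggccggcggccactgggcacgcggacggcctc
The E-box CACGTG was found in 5 of the 16 clock promoters (8.09% of all promoters) and the ROR site AGGTCA in 5, Arntl, Nfil3 and Nr1d2 among them (18.1% of all). These matches describe the windows searched and are no evidence of binding.

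Genes of the ER lumen and of the unfolded protein response were lower in old hearts. Of 36 genes listed, 35 were tested, 20 (57.1%) were lower and 0 higher, against 6.17% and 7.96% over all genes, and the median log2 fold change of the list was -0.33 against -0.0047 over all genes. Sdf2l1 (ENSMUSG00000022769, chromosome 16, 17130138 to 17132383), a partner of the chaperone BiP, had 199, 197 and 163 in the young and 69.3, 81.2 and 60.9 in the old hearts. Sdf2l1 differed by -1.41 ± 0.16 (adjusted p = 6.44e-06). Manf (ENSMUSG00000032575, chromosome 9, 106838312 to 106891979), an ER-resident neurotrophic factor, had 545, 510.1 and 448 in the young and 269.8, 249 and 222 in the old hearts. Manf differed by -1.04 ± 0.091 (adjusted p = 2.29e-07). Hyou1 (ENSMUSG00000032115, chromosome 9, 44379490 to 44392369), a large HSP70-type chaperone of the ER, had 1231, 1235 and 1077 in the young and 709, 736 and 662 in the old hearts. Hyou1 differed by -0.75 ± 0.071 (adjusted p = 6.59e-07). In all 3 genes the young hearts were close to each other, and so were the old hearts, with a clear gap between the ages. Syvn1, the ubiquitin ligase HRD1 of ER-associated degradation, had 523, 574 and 495 in the young and 332, 321 and 325 in the old hearts (-0.71, adjusted p = 1.1e-06). Pdia4, a protein disulfide isomerase, had 644, 639 and 583 in the young and 392, 412 and 349 in the old hearts (-0.70, adjusted p = 1.75e-06). Xbp1, the transcription factor spliced by IRE1, had 824, 881 and 805 in the young and 613, 586 and 505 in the old hearts (-0.57, adjusted p = 3.33e-05). None of the 3 overlapped between the ages. Further lower members were Creld2 (-0.78, adjusted p = 3.82e-05), a secreted disulfide isomerase, Dnajc3 (-0.44, adjusted p = 0.000708), a co-chaperone that also restrains PERK, Pdia6 (-0.37, adjusted p = 0.00489) and Hsp90b1, the HSP90 of the ER (-0.37, adjusted p = 0.0233). Hspa5, which encodes BiP, the central chaperone of the pathway, had 3435, 2922 and 2925 in the young and 2980, 2367 and 2062 in the old hearts. Hspa5 differed by -0.33 ± 0.13 (adjusted p = 0.0846). It was called only without old replicate 1, with library size as a covariate or with the replicate number as a block. Hsp90b1 was not called without young replicate 1, young replicate 2, old replicate 2 or old replicate 3. Over the 14 alternative fits 12 to 23 members were lower and 0 higher, with 12 without old replicate 3.

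The ER stress element is the sequence through which ATF6 and XBP1 are known to act on such genes, and the 4 promoters below are printed to show it in members that fell. It was searched on both strands as CCAAT, a spacer of 9 bases and CCACG, in the same windows. It was found in 37 of 27025 promoters (0.137%) and in 9 of the 30 ER genes with an entry: Calr, Canx, Creld2, Derl3, Dnajc3, Hsp90b1, Hspa5, Pdia6 and Syvn1, most of them named after their values were seen. Over tested genes with a promoter entry it was found in 5 of 741 lower genes (0.675%) and in 0 of 938 higher genes. Of the 9, Creld2, Syvn1, Dnajc3, Pdia6 and Hsp90b1 were called lower and are the 5 lower genes just counted. Hspa5, Calr and Canx were not called, and Derl3 was below the count minimum. The sequences are the 250 bases before each start, all on the plus strand of GRCm38.p6 (RefSeq), with the element in capitals, at chr15:88819396-88819645 for Creld2 (where it reads on the opposite strand), chr19:6046326-6046575 for Syvn1, chr14:118937682-118937931 for Dnajc3 and chr12:17266339-17266588 for Pdia6.
Creld2: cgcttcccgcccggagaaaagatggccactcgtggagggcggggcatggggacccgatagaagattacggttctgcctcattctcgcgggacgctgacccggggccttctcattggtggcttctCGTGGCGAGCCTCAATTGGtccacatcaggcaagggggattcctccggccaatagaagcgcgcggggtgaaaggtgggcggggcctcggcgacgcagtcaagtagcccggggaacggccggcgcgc
Syvn1: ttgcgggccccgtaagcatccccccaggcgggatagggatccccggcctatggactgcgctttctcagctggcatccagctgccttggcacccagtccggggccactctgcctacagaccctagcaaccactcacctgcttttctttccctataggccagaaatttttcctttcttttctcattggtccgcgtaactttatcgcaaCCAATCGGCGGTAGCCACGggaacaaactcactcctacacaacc
Dnajc3: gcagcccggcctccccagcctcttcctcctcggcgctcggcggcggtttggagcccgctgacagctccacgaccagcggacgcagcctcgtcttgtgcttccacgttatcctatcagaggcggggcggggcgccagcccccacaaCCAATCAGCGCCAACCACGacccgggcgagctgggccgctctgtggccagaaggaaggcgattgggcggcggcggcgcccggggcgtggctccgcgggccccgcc
Pdia6: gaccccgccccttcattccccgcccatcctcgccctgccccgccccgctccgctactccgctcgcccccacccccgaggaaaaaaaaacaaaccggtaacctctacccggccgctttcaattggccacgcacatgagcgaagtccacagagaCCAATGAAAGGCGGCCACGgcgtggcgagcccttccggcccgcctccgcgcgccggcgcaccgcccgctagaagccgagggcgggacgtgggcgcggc
The element begins 126 bases before the start in Creld2, 44 in Syvn1, 105 in Dnajc3 and 98 in Pdia6. Sdf2l1, the member that fell most, has an entry without these letters in its window.

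Cytosolic heat shock genes moved the same way. Of 34 genes, 14 were lower (41.2%) and 1 was higher, with a median of -0.18. Hsph1 (ENSMUSG00000029657, chromosome 5, 149614287 to 149636376), the HSP110 nucleotide exchange factor, had 1104, 1176 and 1220 in the young and 655, 747 and 710.3 in the old hearts. Hsph1 differed by -0.72 ± 0.10 (adjusted p = 6.17e-05). Hsp90aa1, the stress-inducible cytosolic HSP90, had 714, 832 and 784 in the young and 565, 542 and 472 in the old hearts (-0.57, adjusted p = 0.000165). Chordc1, an HSP90 co-chaperone, had 779, 870.5 and 839.8 in the young and 604, 590.3 and 498 in the old hearts (-0.57, adjusted p = 3.02e-05). Every old heart was below every young heart in these 3 genes. Dnajb5, a J-domain co-chaperone, fell by 0.57 (adjusted p = 7.17e-05). Hspa1a, the inducible HSP70, had 17.4, 170 and 75.8 in the young and 11.8, 8.92 and 5.6 in the old hearts (-3.46, adjusted p = 0.000251). Its size rested on young replicates 2 and 3, and its counts are uncertain because Hspa1b is nearly identical and reads that map to both were removed. Without young replicate 2 the value was -2.54 (adjusted p = 0.002). The member that rose, Cirbp (ENSMUSG00000045193, chromosome 10, 80165985 to 80172786), is an RNA-binding protein induced by cold rather than heat and had 292, 215 and 232 in the young and 444, 465 and 555 in the old hearts. Cirbp differed by 1.01 ± 0.10 (adjusted p = 1.1e-06). Between 10 and 16 members were lower over the alternatives, with 13 without young replicate 2 and 11 without old replicate 3. The heat shock element, searched as GAA, TTC and GAA parted by 2 bases each, was in the promoters of 5 of 27 members with an entry (0.662% of all promoters). Of these, Chordc1 and Hsph1 were lower in old hearts, and Dnajb6 (-0.0097), Hspd1 (-0.062) and Hspe1 (-0.20) were not called.

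Immediate early genes, which are transcribed within minutes of a stimulus, were lower in old hearts as a list, but their size depended on 1 young heart. Of 33 tested, 15 were lower (45.5%) and 0 higher, with a median of -0.38. Ier5, a regulator of HSF1, had 392, 695 and 581 in the young and 296, 316 and 282 in the old hearts (-0.92, adjusted p = 0.000121), and Klf4, a transcription factor, 621, 741 and 744 in the young and 475, 533 and 502 in the old hearts (-0.48, adjusted p = 0.00325). Fos, a subunit of AP-1, had 63.4, 161 and 108 in the young and 38.3, 48.1 and 60.9 in the old hearts (-1.15, adjusted p = 0.0116). These 3 genes did not overlap between the ages. Atf3, a stress transcription factor, had 74.5, 575 and 228 in the young and 45.7, 58 and 90.3 in the old hearts (-2.14, adjusted p = 0.0026), and Nr4a3, an orphan nuclear receptor, 34.8, 299.7 and 91.2 in the young and 11.8, 46.4 and 48.3 in the old hearts (-1.92, adjusted p = 0.0175). In both of them young replicate 2 was far above every other heart and the groups overlapped. Btg2, an antiproliferative gene of this list, fell by 0.70 (adjusted p = 0.0058), the apoptosis regulator Ier3 by 0.53 (adjusted p = 0.00663) and the phosphatase Dusp5 by 0.77 (adjusted p = 0.00835). Over the alternatives 6 to 19 members were lower, with 6 without young replicate 2 and 19 without young replicate 1. Without young replicate 2 the values were -1.19 for Atf3 (adjusted p = 0.0433) and -0.33 for Btg2 (adjusted p = 0.0445), Fos and Dusp5 were not called, and Nr4a3 was at -0.73 (adjusted p = 0.347). Ier3 was not called without old replicate 3. Of 26 targets of ATF4, the transcription factor of the integrated stress response, 4 were lower and 0 higher: Atf3, the arginine transporter Slc7a1 (-0.66, adjusted p = 0.00125), Cebpg (-0.25, adjusted p = 0.00614) and Ddit3, transcription factors of this response, the last of which lost its call without any heart but young replicate 2.

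Genes of cell division were called about as often as other genes. Of 55 tested, 4 were lower and 2 higher, shares near those of all genes, with a median of -0.17. Mki67, the proliferation antigen, had 109, 142 and 146 in the young and 67.8, 81.2 and 77.7 in the old hearts (-0.80, adjusted p = 0.0263). Top2a, the topoisomerase of dividing cells, fell by 0.91 (adjusted p = 0.0396), Prc1, a protein of the spindle midzone, by 0.84 (adjusted p = 0.0163) and Cdk1, the mitotic kinase, by 1.32 (adjusted p = 0.0244) from counts of 29.7 or less. Prc1 was not called without young replicate 3, and Cdk1 not without young replicate 3, old replicate 2 or old replicate 3. Cenpf (ENSMUSG00000026605, chromosome 1, 189640606 to 189688086), a kinetochore and microtubule protein, rose instead, with 333, 404 and 347 in the young and 1069, 885 and 701 in the old hearts. Cenpf differed by 1.27 ± 0.15 (adjusted p = 1.22e-05). Ccnd1, cyclin D1, rose by 0.39 (adjusted p = 0.0128). The lower count fell to 0 without young replicate 3, 1 without old replicate 3, and 2 without young replicate 2, old replicate 1 or old replicate 2, and the higher count to 1 without young replicate 2, when Ccnd1 was not called. Mki67 and Top2a lost their calls without any heart but young replicate 1. Of 35 p53 targets and senescence genes, 1 was higher and 4 lower, among them Cdkn1a, the cell cycle inhibitor p21, with 477, 748 and 762 in the young and 276, 429.8 and 482 in the old hearts (-0.71, adjusted p = 0.0137) and groups that overlapped, not called without young replicate 2, young replicate 3 or old replicate 1. The lower count of this list was 1 without young replicate 3 and 2 without young replicate 2, old replicate 1 or old replicate 2.

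Genes of complement and inflammation were higher in old hearts. Of 38 tested, 14 were higher (36.8%) and 1 lower, with a median of 0.30, against 7.96% higher over all genes. C4b (ENSMUSG00000073418, chromosome 17, 34728380 to 34743882), complement component 4, had 88.2, 125 and 108 in the young and 361, 435 and 514 in the old hearts. C4b differed by 2.03 ± 0.15 (adjusted p = 1.28e-08). C3 (ENSMUSG00000024164, chromosome 17, 57203970 to 57228136), the central complement component, had 1107, 1460 and 1074 in the young and 2605, 2466 and 2664 in the old hearts. C3 differed by 1.08 ± 0.10 (adjusted p = 4.02e-07). The old hearts lay apart from the young for both, and reads of C4b can be lost to its near-identical neighbour C4a. Il33 (ENSMUSG00000024810, chromosome 19, 29925114 to 29960718), an alarmin of stromal cells, had 44.7, 55.1 and 55.3 in the young and 149, 161 and 126 in the old hearts. Il33 differed by 1.47 ± 0.16 (adjusted p = 3.09e-06). C1s1 and C1ra, proteases of the classical pathway, rose by 0.75 (adjusted p = 6.44e-06) and 0.83 (adjusted p = 2.28e-05), and Vcam1, an adhesion molecule for leukocytes, by 0.71 (adjusted p = 4.14e-05). The member that fell was Il1b, an inflammatory cytokine, with 9.94, 28.5 and 29.7 in the young and 5.9, 6.24 and 9.8 in the old hearts (-1.59, adjusted p = 0.0123), which was named after its values were seen and which was not called without young replicate 2, young replicate 3 or old replicate 2. Over the alternatives 10 to 16 members were higher.

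Markers of macrophages were higher in the same hearts. Of 12 markers, 9 were higher and 0 lower (median 0.39), and their sum was 520 ± 41.1 normalized CPM in young and 692 ± 43.0 in old hearts (SD, n = 3), 1.33-fold higher with no overlap (exact two-sided permutation p = 0.1, the smallest that 3 against 3 hearts allow). Mrc1 (ENSMUSG00000026712, chromosome 2, 14229392 to 14332057), the mannose receptor, had 319, 311 and 326 in the young and 627, 549 and 614 in the old hearts. Mrc1 differed by 0.90 ± 0.10 (adjusted p = 3.09e-06). Ccr2, the chemokine receptor of monocyte-derived cells, had 53.4, 41.4 and 51.2 in the young and 100.3, 108 and 114 in the old hearts (1.16, adjusted p = 0.000518), and Folr2, a folate receptor of resident macrophages, 18.6, 12.9 and 19.5 in the young and 38.3, 33.9 and 44.8 in the old hearts (1.22, adjusted p = 0.00236). Each old heart was above each young heart for all 3. Cd68 rose by 0.78 (adjusted p = 0.001), Cd163 by 0.54 (adjusted p = 0.00735), Csf1r by 0.39 (adjusted p = 0.00239) and Adgre1 by 0.39 (adjusted p = 0.00813). C1qa, Fcgr1 and Lyz2 were not called. Without young replicate 1 the value of Cd163 was 0.36 (adjusted p = 0.0262). Over the alternatives 6 to 10 of the 12 were higher. The part of the macrophage markers in the complement result was not tested.

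Antigen presentation had 5 higher members of 23 (21.7%, against 7.96% over all genes) and 0 lower. The interferon response had 4 of 48 higher (8.33%), near the share over all genes, and 0 lower. H2-T22, a non-classical MHC class I gene, rose by 0.45 (adjusted p = 0.00852), H2-Q4 by 0.43 (adjusted p = 0.0148) and Tap2, a subunit of the peptide transporter, by 0.31 (adjusted p = 0.0243), and counts of H2-Q genes are uncertain among near-identical copies. The count of 5 fell to 0 without young replicate 2 and to 3 without young replicate 1 or old replicate 2, and Tap2 was among the members then lost. Nlrc5, the activator of MHC class I genes, had 96.9, 103 and 91.2 in the young and 128, 194 and 178 in the old hearts (0.81, adjusted p = 0.0134), and Eif2ak2, the kinase PKR, rose by 0.36 (adjusted p = 0.0403). The interferon count was 2 without young replicate 2, young replicate 3, old replicate 2 or old replicate 3, with Nlrc5 not called without young replicate 3 or old replicate 2 and Eif2ak2 not without young replicate 2 (0.22, adjusted p = 0.238), old replicate 2 or old replicate 3. Ighg2c (ENSMUSG00000076612, chromosome 12, 113285325 to 113288932), the heavy chain of immunoglobulin G2c, had 9.94, 9.19 and 17.4 in the young and 129.7, 119 and 123 in the old hearts. Ighg2c differed by 3.33 ± 0.22 (adjusted p = 3.6e-09). It was the 1 called marker of the 9 tested of B and plasma cells, whose sum was 48.8 ± 3.23 in young and 91.8 ± 25.4 in old hearts (normalized CPM; exact permutation p = 0.1). Of the 12 markers of T and NK cells, 8 were below the count minimum. Among the 4 tested, Cd3g was higher, and Cd4, Lck and Ccl5 were not called. Over the alternatives 0 to 1 of them was higher. The sum of the 12 was 8.85 ± 2.59 in young and 14.45 ± 2.89 in old hearts (normalized CPM), with overlap (exact permutation p = 0.2).

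Genes of the extracellular matrix were lower more often than higher. Of 51 matrix glycoproteins, processing enzymes and proteases, 13 were lower (25.5%, against 6.17% over all genes) and 5 higher (9.8%, against 7.96%). P4ha1 (ENSMUSG00000019916, chromosome 10, 59323296 to 59373304), a collagen prolyl hydroxylase, had 1015, 983 and 1069 in the young and 668, 694 and 629 in the old hearts. P4ha1 differed by -0.62 ± 0.073 (adjusted p = 1.02e-05). Loxl2, a lysyl oxidase that cross-links collagen, had 262, 309.8 and 318 in the young and 153, 164 and 181 in the old hearts (-0.82, adjusted p = 2.09e-05), and Eln, elastin, 657, 939 and 824 in the young and 407, 506 and 464 in the old hearts (-0.81, adjusted p = 6.77e-05). The ages did not overlap in any of the 3. P4ha2 and Plod1, which hydroxylate proline and lysine of collagen, fell by 0.43 (adjusted p = 0.000512) and 0.39 (adjusted p = 0.000518). Postn, the matricellular protein periostin, rose, with 484, 478 and 588 in the young and 750.5, 720.5 and 749 in the old hearts (0.52, adjusted p = 0.000406). Over the alternatives 8 to 16 members were lower, with 8 without young replicate 2.

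Among 21 collagen chains tested, 4 were lower (19.05%, against 6.17% over all genes) and 2 higher (9.52%, against 7.96%). The basement membrane chains Col4a1 (ENSMUSG00000031502, chromosome 8, 11198423 to 11312826) and Col4a2 were among the called genes with the most counts: Col4a1 had 4980, 4609 and 4736 in the young and 3714, 3332 and 3005 in the old hearts. Col4a1 differed by -0.51 ± 0.10 (adjusted p = 0.0017). Col4a2 fell by 0.45 (adjusted p = 0.00114). Col1a1, the main fibrillar chain, had 1349, 1409 and 1409 in the young and 1075, 897 and 933 in the old hearts (-0.53, adjusted p = 0.00059), and Col5a3 fell by 0.60 (adjusted p = 0.0046). Col14a1 (ENSMUSG00000022371, chromosome 15, 55307750 to 55520803), a chain on the surface of fibrils, rose, with 251, 268 and 271 in the young and 587, 455 and 471 in the old hearts. Col14a1 differed by 0.92 ± 0.11 (adjusted p = 1.06e-05). Col8a1 rose by 0.38 (adjusted p = 0.0127), a call lost without old replicate 3. Over the alternatives 4 to 6 collagens were lower. Among 30 laminins, integrins and adhesion genes, 3 were lower and 2 higher, near the shares over all genes. Itga5, the fibronectin receptor subunit, had 848, 1143 and 948 in the young and 602, 659.9 and 666 in the old hearts (-0.61, adjusted p = 8.19e-05), and Itga8, an integrin of mesenchymal cells, 89.4, 69.9 and 75.8 in the young and 100.3, 245 and 186 in the old hearts (1.24, adjusted p = 0.00241). Leaving out any heart but young replicate 1 left 1 member of this list higher and 1 lower, and leaving out young replicate 1 left 1 higher and 4 lower.

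The marker sums beside these results were as follows. Fibroblast markers summed to 2121 ± 52.1 in young and 2061 ± 243 in old hearts (normalized CPM, SD, n = 3), with 2 of 10 higher and 2 lower (1 lower without young replicate 2, young replicate 3, old replicate 2 or old replicate 3). Endothelial markers fell from 2984 ± 128 to 2574 ± 152 with no overlap (exact permutation p = 0.1). Of these 12 markers 5 were lower (41.7%, against 6.17% over all genes), Tie1, an endothelial receptor kinase, with -0.37 (adjusted p = 0.00133) among them. The endothelial count was 1 when only the hearts compared were fitted, 8 with library size as a covariate, 2 without young replicate 3, and 3 without young replicate 1, young replicate 2, old replicate 2 or old replicate 3. Markers of endocardial and lymphatic endothelium rose from 640 ± 38.6 to 829 ± 58.5 (exact permutation p = 0.1), with 4 of 7 higher: Lyve1, a hyaluronan receptor, had 202, 239 and 260.1 in the young and 382, 351 and 311 in the old hearts (0.55, adjusted p = 0.0023), and Vwf, von Willebrand factor, rose by 0.55 (adjusted p = 0.00531). The members not called were Prox1 (0.17), Flt4 (0.025) and Ccl21a (0.21). Ventricular cardiomyocyte markers were at 8151 ± 834 and 7872 ± 1865, with 0 of 10 called, and 0 of 7 pericyte markers were called. Across the 6 hearts the cardiomyocyte sum fell as library size rose. It went from 9971 in the smallest library (old replicate 1) to 6408 in the largest (old replicate 3). The part of library size in the cardiomyocyte means was not tested. Platelet markers were 1.62-fold higher, mesothelial markers 0.662-fold and skeletal muscle markers 0.645-fold, from sums under 40 (exact permutation p = 0.1 each). Few of their members were tested and fewer called. Of 4 platelet markers 1 was higher (Ppbp, adjusted p = 0.0475), and of 5 skeletal muscle markers 1 was lower. Of 2 mesothelial markers Wt1 was lower (-0.73) and Upk3b was not called (0.87). The part of these markers in the matrix, clock and chaperone results was not tested.

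In cardiomyocyte genes, a fetal myosin rose while most contractile and channel genes were not called. Myh7 (ENSMUSG00000053093, chromosome 14, 54970684 to 54994626), the beta myosin heavy chain of the fetal heart, had 2169, 1651 and 1539 in the young and 4552, 3135 and 3147 in the old hearts. Myh7 differed by 1.01 ± 0.15 (adjusted p = 0.000161). Every old heart lay above every young heart. Of 32 genes of cardiac stress and hypertrophy 2 were higher (6.25%, against 7.96% over all genes) and 4 lower (12.5%, against 6.17%), with a median of -0.089. Uck2, a uridine kinase, was at -0.57 (adjusted p = 0.000244) and Mef2c, a cardiac transcription factor, at 0.30 (adjusted p = 0.0131 and not called without young replicate 2). Nppa, Myl4 and Myl7, also of this list, were not called. Of 36 sarcomere genes 1 was higher and 3 lower. Prune2, among the most abundant called genes, rose by 0.50 (adjusted p = 0.00541). The lower stress count was 1 without young replicate 2 or old replicate 3 and 2 without old replicate 2, and the lower sarcomere count ranged from 0 without young replicate 2 to 5 without old replicate 1. Of 43 ion channel and calcium handling genes 5 were higher (11.6%, against 7.96% over all genes) and 2 lower (4.65%, against 6.17%). Scn4b (ENSMUSG00000046480, chromosome 9, 45138395 to 45154152), a sodium channel beta subunit, had 600, 336 and 435 in the young and 1137, 1124 and 1252 in the old hearts. Scn4b differed by 1.38 ± 0.16 (adjusted p = 6.51e-06). Cacna1h, a T-type calcium channel, had 204, 181 and 203 in the young and 344, 389 and 281 in the old hearts (0.78, adjusted p = 0.00264), with no overlap. Cacna1g, another T-type channel, went the other way, with 461, 509 and 385 in the young and 259.5, 344 and 372 in the old hearts (-0.45, adjusted p = 0.0278) and no overlap, a call lost without young replicate 1, young replicate 2, old replicate 1 or old replicate 2. Camk2a, a calcium/calmodulin kinase, rose by 0.37 (adjusted p = 0.00414). Over the alternatives 3 to 10 channel genes were higher, with 9 without old replicate 3, and 0 to 3 lower, with 0 without young replicate 2 or old replicate 1.

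Genes of fuel use showed single changes rather than changes of a list. Of 43 genes of fatty acid oxidation, 3 were higher and 1 lower. Cpt1a, which admits long-chain fatty acids to mitochondria, had 703, 710.5 and 636 in the young and 836, 939.9 and 1097 in the old hearts (0.50, adjusted p = 0.00163), and the coactivator Ppargc1b rose by 0.46 (adjusted p = 0.0101). Without young replicate 3, when Ppargc1b was not called, 1 member of this list was higher, and without young replicate 1, 3 were lower. Of 42 genes of glucose use, 3 were higher and 3 lower. Pfkfb1, which sets the level of the glycolytic activator fructose 2,6-bisphosphate, had 129, 158 and 127 in the young and 176, 257 and 362 in the old hearts (0.99, adjusted p = 0.00205), and Pdp1, which activates pyruvate dehydrogenase, rose by 0.45 (adjusted p = 0.00201), and 1 member was lower without young replicate 3. None of the 80 nuclear genes of the respiratory chain and ATP synthase was called by edgeR (0 to 2 lower over the alternatives with 1 at an unadjusted p under 0.05), although all 80 had a negative sign and their median was -0.13. That sign rested on old replicate 3, without which 34 of the 80 were negative and the median was 0.0074. Of 84 ribosomal proteins and elongation factors 1 was lower, with a median of -0.08, of 34 genes of cholesterol and fatty acid synthesis 2 were lower, and of 62 genes of autophagy, lysosome and proteasome 4 were lower and 1 higher. These small counts changed with single hearts: without old replicate 3 no member of the 3 lists was lower, and without young replicate 2 no ribosomal and no autophagy gene was. Among 36 genes of NAD+ metabolism, 4 were higher and 3 lower: Nmnat3, which makes NAD+ in mitochondria, had 200, 185 and 199 in the young and 267, 241 and 263 in the old hearts (0.40, adjusted p = 0.00176), with no overlap. The NAD+ list had 2 higher and 0 lower members without old replicate 3, 2 higher and 1 lower without young replicate 2, and 1 lower without young replicate 1, young replicate 3 or old replicate 1. Of 48 antioxidant and NADPH genes, 4 were higher, led by G6pdx of the pentose phosphate pathway (0.50, adjusted p = 0.00732), and 2 lower, which became 1 higher and 0 lower without young replicate 2, 2 and 0 without old replicate 2, and 0 lower without young replicate 3 or old replicate 3.

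Of 60 genes of insulin, growth factor, mTOR and FOXO signaling, 8 were higher (13.3%, against 7.96% over all genes) and 4 lower (6.67%, against 6.17%). The median of the list was 0.036. Pdgfra, a fibroblast receptor for platelet-derived growth factor, had 605, 709 and 672 in the young and 819.8, 803 and 892 in the old hearts (0.34, adjusted p = 0.00258), while Pdgfb, a ligand, fell by 0.34 (adjusted p = 0.00738). Igfbp5, a binding protein of insulin-like growth factors, had 1561, 1528 and 1465 in the young and 1976, 1940 and 1905 in the old hearts (0.35, adjusted p = 0.00457). Deptor, an inhibitor of mTOR, rose by 0.43 (adjusted p = 0.0137), Fbxo32, the ubiquitin ligase atrogin-1, by 0.37 (adjusted p = 0.0148) and Prkab1, a subunit of AMPK, by 0.33 (adjusted p = 0.00975). The list had 4 higher and 2 lower members without young replicate 2, 2 lower without old replicate 3, and 1 lower without young replicate 3 or old replicate 2. Of the genes named, Fbxo32 and Prkab1 were not called without young replicate 2, Pdgfb not without young replicate 3, and Deptor not without young replicate 3 or old replicate 3 (0.28, adjusted p = 0.122).

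At ZT10 the age difference involved in part other genes, and some of the same genes with the other sign. At that time 906 genes were called (5.87%), 455 higher (2.95%) and 451 lower (2.92%), fewer than at ZT22 in the fit of all hearts. When each time was fitted alone, edgeR called 1168 genes at ZT22 and 1479 at ZT10, and DESeq2 689 and 730. The 906 genes at ZT10 became 478 to 550 without any heart of that time other than young replicate 1. The 2 times shared 220 genes called in the same direction, 24.3% of the genes called at ZT10 and 10.1% of those called at ZT22, and 89 genes called in opposite directions. The age by time interaction, which tests the difference between the age effects at the 2 times, was called for 1064 genes (6.89%), for 581 with the age difference more positive at ZT22 (3.76%) and for 483 with it more negative (3.13%). All 89 opposite genes had it, and so did 7 of the 220. Of the 1874 genes called at ZT22 and not at ZT10, 1299 had no called interaction, so for these a difference between the times was not shown.

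The ER, heat shock, immediate early and clock lists had the highest shares of members with an interaction. In the ER list 19 of 35 members had an interaction, all more negative at ZT22, and the median age difference was -0.33 at ZT22 and 0.11 at ZT10, where 4 members were higher and 0 lower. Hyou1 had 559, 470.3 and 575 in young and 714, 697 and 677 in old hearts at ZT10, an age difference of 0.38 (adjusted p = 0.00365), and Sdf2l1 53.4, 38.6 and 34.5 and 66.4, 94 and 69.5, a difference of 0.87 (adjusted p = 0.0108). Old hearts were thus above the young at ZT10 and below them at ZT22 for these 2 chaperones. Of the heat shock list 14 of 34 had an interaction (13 more negative), of the immediate early list 14 of 33 (13 more negative) and of the core clock list 11 of 19 (4 more negative). In the complement list 3 of 38 had one, and 7 members were higher and 0 lower at ZT10 as well, C3 with a difference of 1.02 (adjusted p = 1.61e-06) there. Cell cycle genes had 12 interactions in 55, 9 of them more negative, and a median of 0.38 at ZT10 against -0.17 at ZT22. The cardiac stress and hypertrophy list had 10 interactions in 32, 7 of them more negative at ZT22. At ZT10 5 of its members were higher and 2 lower. Of the channel list 7 of 43 had an interaction, all more positive at ZT22, and of the macrophage markers 4 of 12, all more positive.

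Outside the lists, the called genes with the most positive interaction were Pla2g4e, a cytosolic phospholipase, with 93.2, 45 and 81.9 in the young and 178, 168 and 189 in the old hearts at ZT22 (1.32, adjusted p = 4.05e-05), Cngb3, a cyclic nucleotide-gated channel subunit (0.91, adjusted p = 0.00517), Map2k6, a kinase of the p38 pathway (1.40, adjusted p = 0.00051), Cpn2, a carboxypeptidase N subunit (0.93, adjusted p = 0.00407) and Cracr2a, a calcium-sensing Rab GTPase (0.85, adjusted p = 0.0343). The most negative, with members of the lists included, were those of Arntl, Nr4a3, Atf3, Sdf2l1, Arid5a and Tnfrsf12a. Tnfrsf12a, the TWEAK receptor, had 414, 646 and 495 in the young and 256, 308 and 265 in the old hearts at ZT22 (-0.91, adjusted p = 0.000586). Both rankings were of genes called at ZT22 and for the interaction, with a mean count of at least 50. Below that count, Hspa1a (-4.03) and Il1b (-2.86) had interactions more negative than any of these. Leaving out young replicate 2 of ZT22 moved the interactions of Nr4a3 and Atf3 to -1.41 (adjusted p = 0.175) and -1.43 (adjusted p = 0.112). Cracr2a was not called at ZT22 without young replicate 2, young replicate 3 or old replicate 3.

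**Figure D5:**
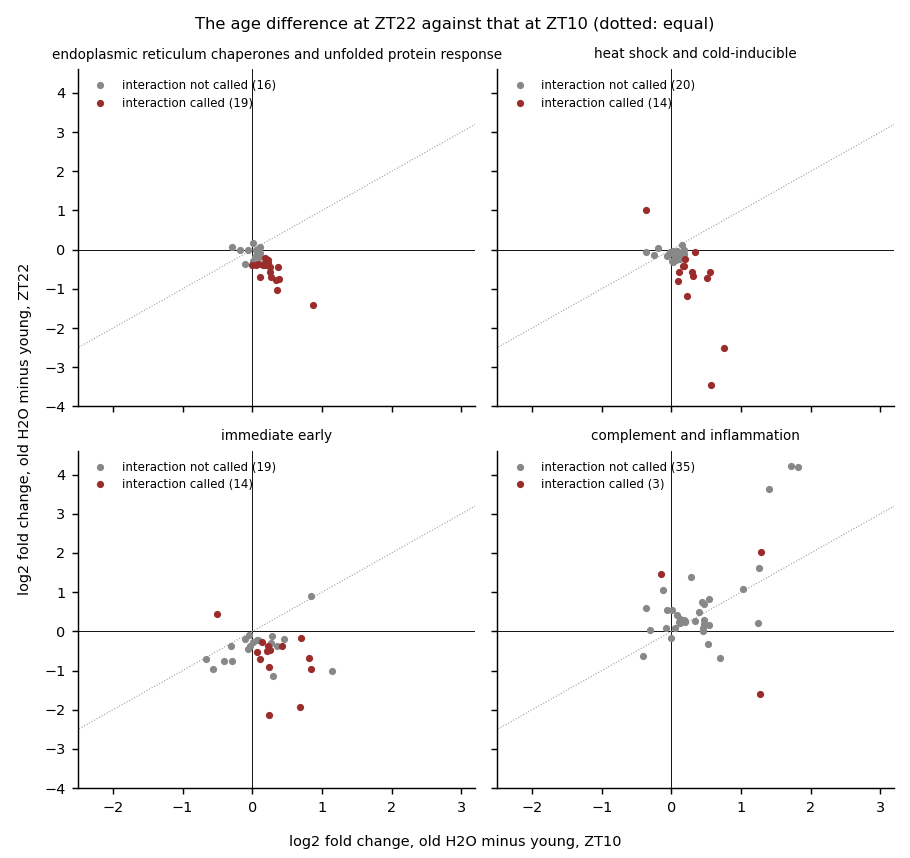
Each point is a tested member of the list named above its panel, with the log2 fold change between old H2O and young hearts at ZT10 on the x axis and at ZT22 on the y axis, on axes of different scale, and red where the interaction was called. ER, heat shock and immediate early points gather below 0 at ZT22 and to the right of 0 at ZT10, and complement points lie mostly above and to the right of 0.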

How the data were processed

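RNA of whole hearts was sequenced by the authors as stranded, single-end mRNA libraries. Per the labels and the study's methods, they trimmed reads with Trimmomatic 0.39, aligned them to mm10 with STAR 2.7.10a, removed duplicates with Picard 3.0.0 along with multi-mapping, rRNA and mitochondrial reads, and counted exon reads of 1 gene with featureCounts 2.0.4. Duplicate removal on single-end reads limits the counts of abundant transcripts. The deposited heart file used here holds these raw counts, and the authors' table scaled with DESeq2 1.36.0 (unit score) was only compared with them. The 2 heart files carry each other's name: the values in the file named as normalized are whole-number counts and those in the file named as raw are scaled, and units were taken from the values. Tables of HL-1 cells, a mouse cardiomyocyte line, were not used here.

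Groups came from the sample labels. Counts were fitted with edgeR 4.0.16 (R 4.3.3) over all 18 hearts, in 6 groups that include old mice given nicotinamide riboside, with TMM normalization, genes with a mean count over 5, the quasi-likelihood F-test and Benjamini-Hochberg adjustment over 15443 genes at 0.05. Counts per heart are TMM-normalized. Marker sums per heart were compared by an exact two-sided permutation test. Alternatives were DESeq2 1.42.0, its size factors, other filters and samples, a replicate block, library size as a covariate, a log2 fold change over 0.5, leaving out each heart, and plain CPM for marker sums. The test was checked on simulated data. Coordinates are from GENCODE M21 (GRCm38; 20737 of 20764 genes matched) and promoters from RefSeq (GRCm38.p6).

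Genes were named by rule: the 12 largest changes in each direction among called genes with a mean count of at least 50 and no overlap, up to 6 called members per list (or, with fewer than 2, the 2 with the most counts), all core clock genes, the 6 largest interactions each way, the 6 called genes with the most counts, and cell type markers. Interactions were ranked among genes called at ZT22 and for the interaction, with a mean count of at least 50. Fewer are described where lists are long, 2 genes among these are not reported here, and 6 genes with values outside the rule were named after their values were seen. Members and lists were chosen with earlier results of these data known. Libraries come from separate mice, 3 per group. The p-values of the F-test rest on the spread between mice within groups, estimated over all 18 hearts and not only the 6 compared.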

Additional observations from a re-analysis of the deposited data

Results flagged for a closer look

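For 85 of the 138 genes given with a value, the age difference at ZT22 differed from that at ZT10, since the age by time interaction was called (edgeR with Benjamini-Hochberg adjustment). Over all genes tested it was called for 1064 of 15443 (6.89%), and among genes called at ZT22 for 671 of 2183. Some of the 138 genes were named for the size of their interaction, so that their share is raised by the choice. The values below are interactions on the log2 scale, the age difference at ZT22 minus that at ZT10, and no explanation was tested. Over the fits that left out 1 heart, took other samples or used another tool, normalization, filter or covariate, 214 of 1700 such values lost their call and 0 changed sign. Of the 85 interactions 52 kept their call in all 20 of these fits, and 32 lost it when some single heart was left out. The calls lost most often were those of Nnt (14 of 20 fits), Prkcq and Cebpg (13 each), Nr4a3 and Csf1r (12 each), Atf3 and Btg2 (11 each) and Hlf, Ccr2, Cd68 and Scn4b (10 each). Without young replicate 2 at ZT22 the values were -1.41 for Nr4a3 (adjusted p = 0.175), -1.43 for Atf3 (adjusted p = 0.112) and -0.44 for Btg2 (adjusted p = 0.0642).

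In the clock the interaction was positive for Per3 (1.55), Dbp (1.39), Nr1d2 (0.79), Per1 (0.64), Bhlhe41 (0.58), Tef (0.57) and Hlf (0.44), and negative for Arntl (-2.67), Nfil3 (-1.60), Clock (-0.75) and Cry1 (-0.51). For Kcnd2, a potassium channel gene of the output list, it was positive (0.54). Per1, Bhlhe41, Hlf and Clock had no called age difference at ZT22.

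Among ER genes the values were -2.27 for Sdf2l1, -1.40 for Manf, -1.13 for Creld2, -1.13 for Hyou1, -0.97 for Pdia4, -0.83 for Xbp1, -0.82 for Syvn1, -0.70 for Dnajc3, -0.60 for Hsp90b1 and -0.46 for Pdia6. Cytosolic chaperones had -1.24 (Hsph1), -1.13 (Hsp90aa1), -0.87 (Chordc1), -0.67 (Dnajb5) and -4.03 (Hspa1a), and Cirbp stood against them with 1.37. Immediate early and ATF4 genes had -2.60 (Nr4a3), -2.38 (Atf3), -1.16 (Ier5), -0.81 (Btg2), -0.73 (Klf4), -0.69 (Slc7a1), -0.59 (Ier3) and -0.27 (Cebpg). Nr4a3, with an adjusted p of 0.0375, is among the genes in which young replicate 2 was high.

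Cell cycle genes were negative for Cdk1 (-2.29), Cdkn1a (-1.76), Mki67 (-1.69), Top2a (-1.68) and Prc1 (-1.20), and positive for Cenpf (1.37). In the matrix the negative values were those of P4ha1 (-1.11), Col11a2 (-1.02), Col5a3 (-0.94), Loxl2 (-0.60), P4ha2 (-0.50), Itga5 (-0.46), Plod1 (-0.39), Adamtsl2 (-1.56) and Olfml2b (-1.72), and the positive ones those of Itga8 (1.49), Col14a1 (1.10) and Postn (0.52).

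Immune genes had 1.62 (Il33), 0.95 (Ccr2), 0.74 (C4b), 0.71 (Cd68), 0.63 (Mrc1), 0.39 (Csf1r) and -2.86 (Il1b). Cardiomyocyte and channel genes had 1.19 (Cacna1h), 0.94 (Myh7), 0.74 (Scn4b), 0.44 (Camk2a), 0.41 (Mef2c) and -0.66 (Uck2). Genes of fuel use, NAD+ and growth signals had 1.09 (Pfkfb1), 0.90 (Cpt1a), 0.88 (Nnt), 0.61 (Deptor), 0.59 (Prkab1), 0.51 (Pdp1), 0.42 (Nmnat3) and 0.39 (Pdgfra).

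Of the remaining genes, the interaction was positive for Pla2g4e (2.04), Cngb3 (1.94), Map2k6 (1.82), Cpn2 (1.62), Cracr2a (1.60) and Prkcq (0.73), and negative for Arid5a (-2.22), Tnfrsf12a (-1.88), Tnfrsf25 (-1.12) and Siah2 (-0.95).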

How the results depend on the processing

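Of 1930 recomputed age differences at ZT22 over the genes given with a value, 1805 stayed on their side of the threshold with their direction, 109 lost the call, 10 gained one and 6 changed sign, the last in genes that were not called. The 2183 genes called at ZT22 (1230 higher, 953 lower) became 1168 (781 and 387) when edgeR was fitted to the 6 hearts at ZT22 alone, 689 (454 and 235) with DESeq2 on those hearts, and 995 (741 and 254) with an absolute log2 fold change over 0.5 required as well. DESeq2 on all hearts gave 620 lower genes. Leaving out 1 heart gave 1321 to 2007 genes (770 to 1249 higher, 551 to 888 lower), fewest without young replicate 2. At ZT10 the 906 genes became 1479 with edgeR on that time alone, 1417 with library size as a covariate, 466 with the fold change required, and 478 to 614 without 1 heart. The 1064 interactions became 668 with DESeq2 on the 12 hearts concerned and 722 to 1248 without 1 heart. The values that changed sign, without 1 heart, were those of Per1 (-0.021 to 0.308, lowest without old replicate 3), Rora (-0.0097 to 0.187, lowest without young replicate 1), Hlf (-0.020 to 0.175, lowest without young replicate 2) and Ciart (-0.151 to 0.241, negative without young replicate 1, young replicate 2 or old replicate 3). The cause of these changes was not tested, except that requiring a fold change can only remove calls.

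Young and old hearts share replicate numbers, but same-numbered hearts did not deviate together (correlations of 0.106, 0.0903 and -0.0158), so that the numbers were not taken to pair the hearts. With the replicate block, 2386 genes were called at ZT22 (1330 higher and 1056 lower), 1023 at ZT10 and 1216 for the interaction. Depth limits genes of low counts: 5321 of 20764 genes were below the mean count and were not tested.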
